A study of Mus musculus with 38 samples.

Results

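The comparison described here is Ube3a2X against WT in the PFC of female mice, across genes and pathways. It used the 10 libraries labelled as PFC and female, 5 Ube3a2X and 5 WT, of the 38 libraries in the series. The series measured RNA by sequencing in the PFC and the Hypo of male and female mice, and the other 28 libraries (10 of PFC from males, 18 of Hypo) did not enter this comparison. Ube3a2X mice were adult virgin females on the FVB/NJ strain, homozygous for a transgene that adds Ube3a copies irrespective of parental origin and carries a C-terminal tag, and WT littermates without the transgene were the controls. Each library came from 1 mouse, and the mice are named here by the numbers in the labels: 272, 417, 420, 462 and 468 for Ube3a2X, and 93, 259, 262, 395 and 397 for WT. The PFC was taken as small tissue punches, so the libraries are bulk mixtures of neurons, glia and vessels. The methods text of the study counts 4 WT mice of each sex, the table holds 5 WT female PFC libraries, and all 5 were used. Values for each library are given below in the order of the mouse numbers just listed.

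Ube3a encodes an E3 ubiquitin ligase of the HECT family, which attaches ubiquitin to proteins and so marks many of them for the proteasome. In neurons the gene is imprinted: the maternal allele is active, and the paternal allele is silenced by a long antisense transcript that starts near Snrpn and runs into Ube3a. Loss of the maternal copy causes Angelman syndrome, and extra copies of the human 15q11-q13 region, which holds the gene, are among the recurrent genetic findings in autism. UBE3A also acts as a coactivator of steroid hormone receptors, so that its dosage can reach transcription as well as protein turnover.

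Each library held 36.9 to 59.6 M counted reads (median 51 M, where M stands for mega), and RIN, the score of RNA integrity, ran from 7.2 to 8.9. Over the 20 pairs of libraries from the same group, counts differed by 16.4 to 271 times what sampling of reads would give (as a squared difference), and no pair agreed within that sampling noise. Xist ran from 746 to 1918 CPM and Ddx3y was at 0 in all 10 libraries. Markers of cortex were high (the 8 markers of excitatory cortical neurons summed to 6813 to 9907 CPM), whereas the 12 markers of hypothalamus and pituitary summed to 1.05 to 3.4 CPM. Ube3a2X 468 and WT 397 stood apart from the rest. The first principal component of log2-CPM held 50.6% of the variance and placed Ube3a2X 468 at 50.5 and WT 397 at 15.8, with the other 8 libraries between -23.8 and 2.06. Ube3a2X 462 held more RNA of the olfactory bulb, the tissue in front of the PFC: 6 of its markers summed to 66.2 CPM there and to 6.84 to 13.3 CPM in the other 9 libraries, and Eomes stood at 6.69 CPM against at most 0.496 CPM. Th, another of these markers, stood at 2.7 CPM, within the 0.4 to 2.99 CPM of the others. Ube3a2X 462, Ube3a2X 468 and WT 397 were kept, and values without WT 397 and Ube3a2X 468 are given beside some of the results below.

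The transgene was visible in every Ube3a2X library. Ube3a (ENSMUSG00000025326), on the plus strand of chromosome 7 at chr7:59228750-59311536 in GRCm38, stood at 313, 219, 265, 234 and 298 CPM in the WT libraries and at 1155, 1839, 1662, 923 and 2726 CPM in the Ube3a2X libraries. CPM are the reads of a gene relative to the total over the genes tested, after TMM scaling of the totals. The groups did not overlap, and the lowest Ube3a2X library, 462, lay at 3.47 times the WT mean whereas the highest, 468, lay at 10.3 times. Ube3a rose from 266 ± 40 CPM (SD, n = 5) to 1661 ± 701 CPM (SD, n = 5). On the log2 scale the difference was 2.72 with an SE of 0.228, a 6.61-fold increase (edgeR quasi-likelihood test with RIN as covariate, adjusted p = 0.000204). Leaving out each library in turn gave 2.47 to 2.90. In bulk tissue, more cells that express a gene and more RNA per cell cannot be told apart, here and in every result that follows.

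The start of Ube3a is also covered by an unclassified transcript on the opposite strand. 9330162G02Rik (chr7:59223847-59254788, minus strand, GRCm38) overlaps Ube3a over 26039 bases, and its span also covers the Ube3a promoter. The promoter is printed for that reason, 5′ to 3′ on the plus strand, from RefSeq on GRCm38.p6 (chr7:59228500-59228799, 250 bases before to 50 after the start site). It holds 69% GC and 29 CpG dinucleotides, and no letters are capitalised.
Ube3a: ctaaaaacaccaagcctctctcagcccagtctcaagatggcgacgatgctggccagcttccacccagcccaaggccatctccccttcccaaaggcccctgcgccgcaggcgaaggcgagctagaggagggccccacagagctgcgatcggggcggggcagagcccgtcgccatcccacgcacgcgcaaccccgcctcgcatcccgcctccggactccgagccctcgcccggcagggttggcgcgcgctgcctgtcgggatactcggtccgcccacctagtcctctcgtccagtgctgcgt

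9330162G02Rik was the gene with the second smallest p among all genes tested. Its levels were 33.7, 19.5, 34.9, 29.2 and 31.2 CPM in the WT libraries and 46.3, 80.5, 59.9, 40.2 and 78.1 CPM in the Ube3a2X libraries. The groups did not overlap. The difference of 1.16 (log2, SE 0.176) missed the threshold in edgeR (adjusted p = 0.0848), and across the alternatives its adjusted p ran from 5.5e-06 to 0.659. Its mean was 31.3 CPM higher in Ube3a2X, which is 2.25% of the 1395 CPM by which the mean of Ube3a rose. Reads on the strand opposite to the expected one made up 1.56 to 8.5% of reads over the libraries. Relative to Ube3a, the reads of 9330162G02Rik amounted to 8.87 to 13.2% in WT and to 2.87 to 4.38% in Ube3a2X. Whether the reads came from this transcript or from Ube3a itself was not tested, and the strand setting of the counting is not given in the sources used here.

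Of the 18 genes of this region listed, 14 were tested, and Ube3a was the only one that edgeR called with the 10 libraries and the filters used here, whereas DESeq2 also called 9330162G02Rik. The median log2 fold change of the 14 was 0.30, 0.11 with the offset for GC and length described below and 0.14 without Ube3a2X 468. Snhg14, the host of the antisense transcript that silences the paternal allele, differed by 0.30 (SE 0.181, edgeR adjusted p = 0.435), by 0.04 with that offset and by 0.52 without WT 93 and 0.19 without WT 259. Levels of Snhg14 were 168, 94.3, 136, 111 and 128 CPM in WT and 169, 186, 125, 111 and 173 CPM in Ube3a2X, and the groups overlapped. Snrpn, a splicing factor gene of the paternally expressed cluster, differed by 0.11 (SE 0.12), and Ndn, another paternally expressed gene, by -0.16 (SE 0.21). Snurf, which shares its transcript with Snrpn and whose reads cannot be separated from it with certainty, differed by 0.29 (SE 0.125, edgeR adjusted p = 0.415).

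**Figure D1:**
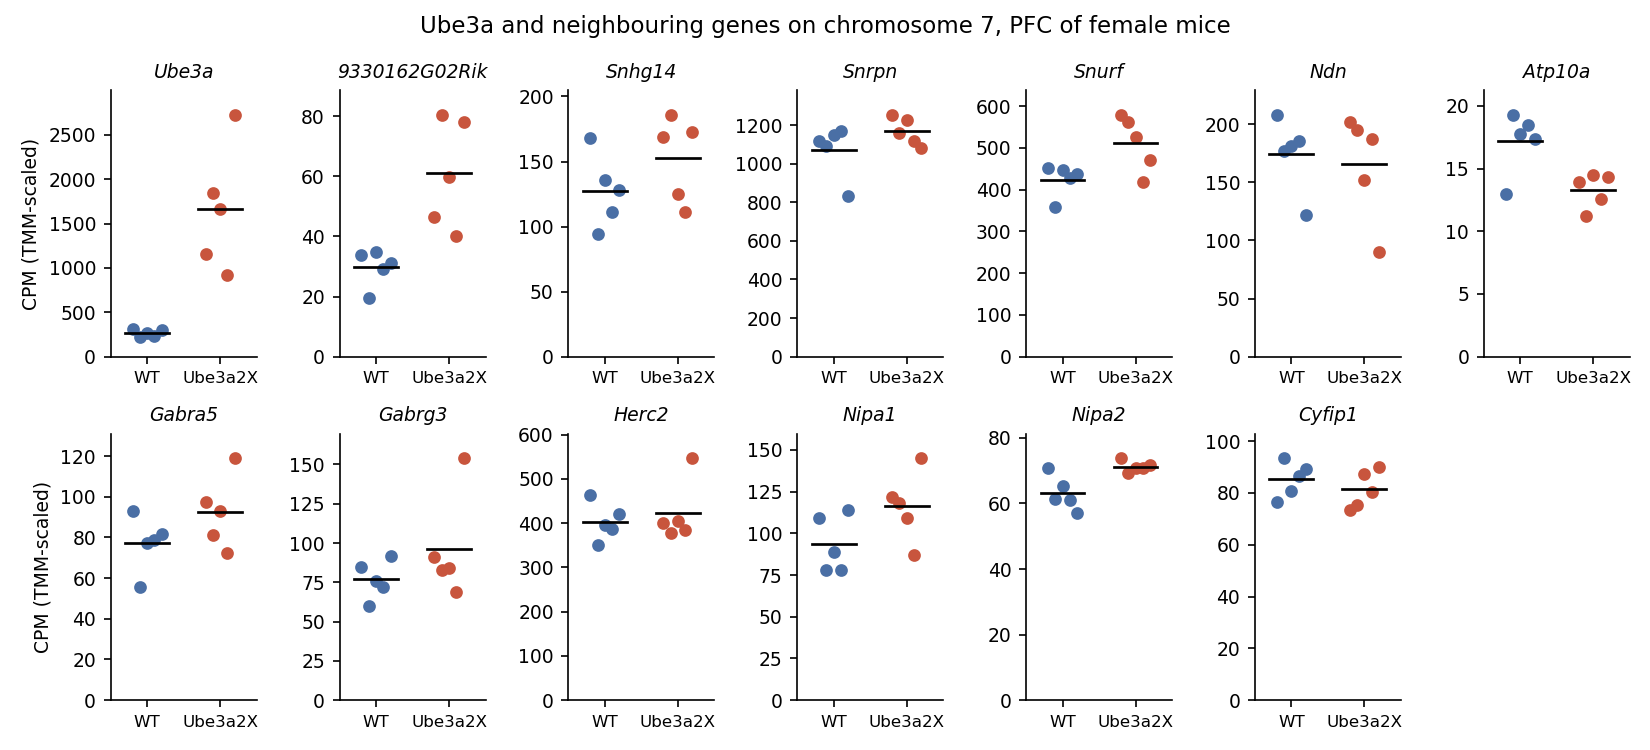
Levels of 13 tested genes of the Ube3a region, in CPM after TMM scaling (vertical axes, each starting at 0), for 5 WT (blue) and 5 Ube3a2X (red) libraries, with a black line at the mean. Ube3a and the overlapping 9330162G02Rik have groups that do not overlap, and the points of the other 11 genes overlap.

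The GABA-A receptor genes of the region given here lay higher in Ube3a2X on average, and Ube3a2X 468 was the highest library for each. Gabrg3, a gamma subunit, stood at 84.9, 59.9, 75.6, 72.1 and 91.6 CPM in WT and at 91.3, 82.8, 83.9, 68.7 and 154 CPM in Ube3a2X, a difference of 0.41 (SE 0.188) that was 0.18 without WT 397 and Ube3a2X 468. Only Ube3a2X 468 lay above the WT range. Gabra5, an alpha subunit, differed by 0.31 (SE 0.162), and by 0.19 without those 2 libraries. Atp10a, a phospholipid transporter gene, stood at 13, 19.3, 17.8, 18.5 and 17.4 CPM in WT and at 13.9, 11.2, 14.5, 12.6 and 14.3 CPM in Ube3a2X, a difference of -0.36 (SE 0.146, edgeR adjusted p = 0.415). The WT library 93 lay within the Ube3a2X range and the other 4 above it. Of the other neighbours, differences were 0.34 (Nipa1), 0.15 (Nipa2), 0.10 (Herc2, a ubiquitin ligase that binds UBE3A) and -0.06 (Cyfip1).

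Ube3a was the only gene called among 11053 genes tested, at an adjusted p under 0.05 (0.00905% of genes, edgeR). At an unadjusted p under 0.05, 686 genes lay higher in Ube3a2X (6.21%) and 598 lay lower (5.41%). Genes whose groups did not overlap numbered 106 higher (0.959%) and 136 lower (1.23%). DESeq2 called 16 genes, 11 higher and 5 lower, and limma-voom called 1. The 15 that DESeq2 added were 9330162G02Rik, Tmsb15b1, Ccn1, Eif3j2, Rpl30, Snrpd1, Pfdn4, Fos, Cyp26b1 and Egr2 with higher means in Ube3a2X and Vwa5b2, Tmc6, Dock6, H2-K1 and H2-Q4 with lower means. In the following paragraphs, "higher" and "lower" for a count of genes mean an unadjusted p under 0.05 in edgeR. "Called" for a gene or a list refers to edgeR at an adjusted p under 0.05, by which no gene other than Ube3a was called, and the values of the others are descriptions. The number at an unadjusted p under 0.05, 1284 in all, was 446 without Ube3a2X 468, 362 without WT 259, 786 without Ube3a2X 272, 818 without WT 262 and 2071 without Ube3a2X 417. Single values shifted as well: of the genes other than Ube3a followed through the alternatives, the difference became over 1.5 times smaller or changed sign for 33 of 94 without Ube3a2X 468, for 11 of 94 without WT 259, for 44 of 97 with 2 surrogate variables and for 52 of 97 with the offset for GC and length described below.

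The differences followed the base composition of the genes. Over 11042 genes, the log2 fold change correlated with GC content at Pearson's r = -0.663 (a description across genes that share the same libraries), and at -0.468 without Ube3a2X 468. In the fifth of genes with the lowest GC content (29.1 to 43.6%) the median log2 fold change was 0.23, with 484 genes higher and 2 lower. In the fifth with the highest (56.1 to 71.3%) the median was -0.23, with 6 higher and 438 lower. The slope of each library's log2-CPM on GC, per 10 points of GC, was 0.0243, 0.242, 0.0729, 0.138 and 0.0273 in WT and -0.0793, -0.0316, 0.0117, 0.0437 and -0.449 in Ube3a2X. The slopes of the groups overlapped, Ube3a2X 468 lay lowest, and the mean difference was -0.202 (exact two-sided permutation test over all arrangements of the 10 libraries, p = 0.0317, adjusted p = 0.222 over 14 measures), and -0.115 without Ube3a2X 468. AT dropout, a score of how many reads of AT-rich sequence are missing, ran from 18.7 to 21.1 in WT and from 10.6 to 18.3 in Ube3a2X without overlap (p = 0.00794 by the same exact permutation test, the smallest it can give; adjusted p = 0.111). RIN differed by -0.38 between the groups (p = 0.317, exact permutation test), and by -0.165 without WT 395. When each library's trend on GC content and gene length was removed by an offset, 261 genes were higher and 246 lower, Ube3a stayed the only call with a log2 difference of 2.44, and r with GC was 0.013. The lists below are therefore given with their medians under this offset, and the part of GC composition in any single result was not tested further.

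**Figure D2:**
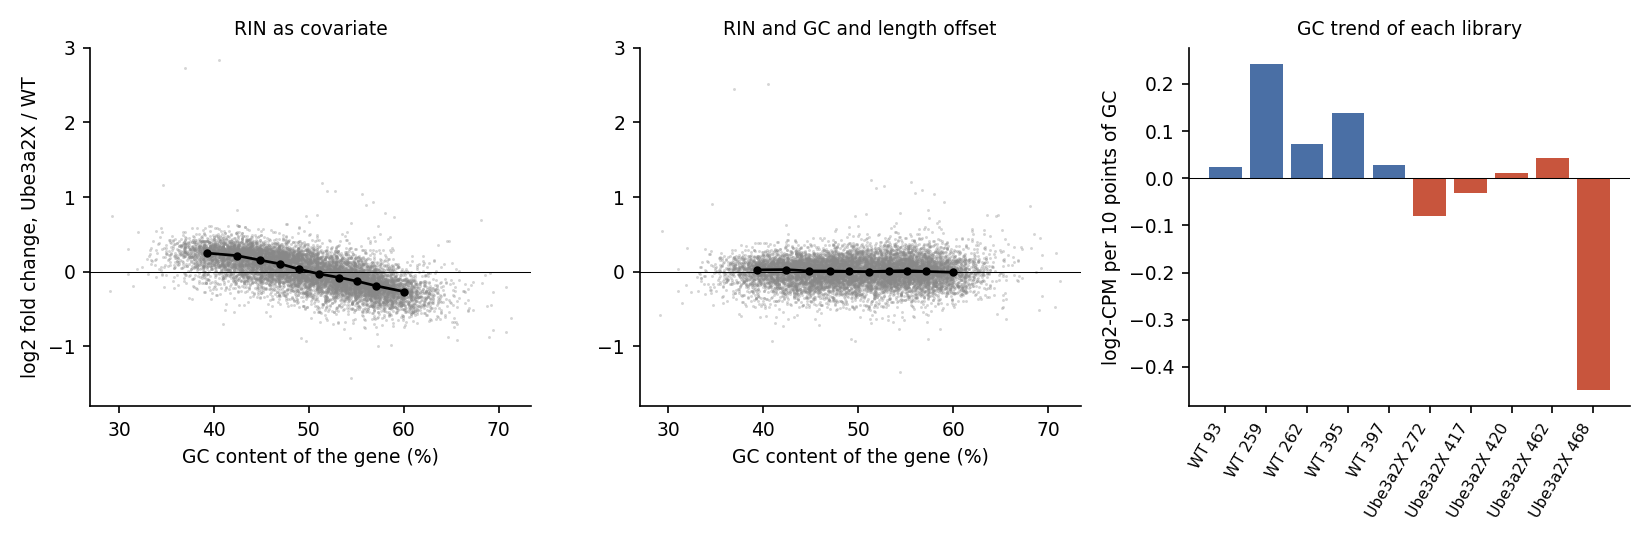
The left and middle panels plot the log2 fold change (Ube3a2X over WT) of each gene against its GC content in percent, without and with an offset for GC and length, with the medians of 10 bins of genes along GC in black. The right panel gives each library's slope of log2-CPM per 10 points of GC: in the left panel the medians fall from low to high GC, in the middle panel they stay near 0, and Ube3a2X 468 has the lowest slope (-0.449).

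Counts by chromosome were read with the GC content of their genes. Of the 381 tested genes of the X chromosome, 44 were higher (11.5%, against 6.21% of all genes tested) and 0 lower (against 5.41%). Their median log2 fold change was 0.13. Its genes had a median GC content of 45.8%, against 50.1% over all genes tested, and its median was 0.05 with the offset. Chromosome 13, whose genes had a median GC content of 45.9%, had 12.7% of 403 genes higher and a median of 0.12 (0.04 with the offset). On chromosome 7, which carries Ube3a, 29 of 872 genes were higher (3.33%) and 78 lower (8.94%), with a median of -0.08 (0 with the offset).

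Among the 10 genes with the smallest p and a higher mean in Ube3a2X, 4 are described first, Rpl30, Pfdn4, Eif3j2 and Snrpd1. Rpl30, a protein of the large ribosomal subunit, stood at 78.4, 95, 93.7, 103 and 85.5 CPM in WT and at 114, 122, 128, 108 and 176 CPM in Ube3a2X. Pfdn4, a subunit of the prefoldin chaperone, stood at 21.1, 19.3, 21.7, 22.2 and 21.2 CPM in WT and at 28.1, 28.4, 27.1, 24.3 and 34 CPM in Ube3a2X. The groups did not overlap for either gene, and Ube3a2X 468 was highest in both. Eif3j2, a gene for a translation initiation factor subunit, went from 19.2 ± 2.13 to 28.0 ± 3.43 CPM (SD, n = 5 each), a difference of 0.58 (SE 0.126). Snrpd1, a core protein of spliceosomal particles, went from 31.1 ± 2.24 to 41.7 ± 4.61 CPM, a difference of 0.47 (SE 0.107). These 4 genes have 39.1 to 43.1% GC, and with the offset their differences were 0.38 (Rpl30), 0.28 (Pfdn4), 0.39 (Eif3j2) and 0.32 (Snrpd1).

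The other 3 described here are a thymosin, a matrix protein and an enzyme. Tmsb15b1, a thymosin beta gene on the X chromosome, stood at 3.27, 2.24, 3.25, 3.99 and 2.98 CPM in WT and at 5.09, 5.58, 4.35, 4.26 and 6.2 CPM in Ube3a2X, with no overlap. Its near copies Tmsb15b2 and Tmsb15l, chosen after their values were seen, differed by 0.60 and 0.59, and reads cannot be divided between these genes with certainty. Ccn1, a secreted matrix protein induced by growth factors, stood at 3.32, 2.64, 2.92, 8.45 and 5.41 CPM in WT and at 6.12, 13.2, 4.83, 5.01 and 7.44 CPM in Ube3a2X, and its groups overlapped. Cyp26b1, the enzyme that degrades retinoic acid, stood at 9.28, 7.12, 7.73, 11.6 and 12.7 CPM in WT and at 13.1, 19.5, 23.2, 21.1 and 12.6 CPM in Ube3a2X, with Ube3a2X 468 just below the highest WT library. Their differences were 0.83 (Tmsb15b1, SE 0.155), 1.08 (Ccn1, SE 0.223) and 0.93 (Cyp26b1, SE 0.233). With the offset these were 0.63, 1.14 and 1.10, and edgeR's adjusted p was 0.415 for each of the 3 without it. With genotype alone, without RIN as covariate, they were 0.69, 0.68 and 0.89.

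The 10 genes with the smallest p and a lower mean were GC-rich, with 53.7 to 62.2% GC. Dock6, an activator of small GTPases, stood at 10.6, 11.6, 11.1, 13 and 12 CPM in WT and at 6.81, 8.6, 6.69, 8.53 and 7.12 CPM in Ube3a2X. Vwa5b2 stood at 43.6, 55.4, 49, 44.6 and 47.7 CPM in WT and at 31, 36.5, 31.6, 32.3 and 20.3 CPM in Ube3a2X. The groups did not overlap in either gene, with differences of -0.58 (SE 0.134) and -0.71 (SE 0.151). Matrix genes were among them: Ltbp4, which binds latent TGF-beta, differed by -0.56 (SE 0.134), and Col27a1, a fibrillar collagen, by -0.64 (SE 0.157). Chrd, an antagonist of bone morphogenetic proteins, differed by -0.76 (SE 0.188), and Acacb, the mitochondrial acetyl-CoA carboxylase, by -0.55 (SE 0.142). The others were Tmc6 (-0.98, SE 0.222), Lrrc45 (-0.64, SE 0.154), Med16, a Mediator subunit (-0.49, SE 0.124), and H2-K1. With the offset the 10 differences shrank to between -0.77 (H2-K1) and -0.21 (Med16).

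**Figure D3:**
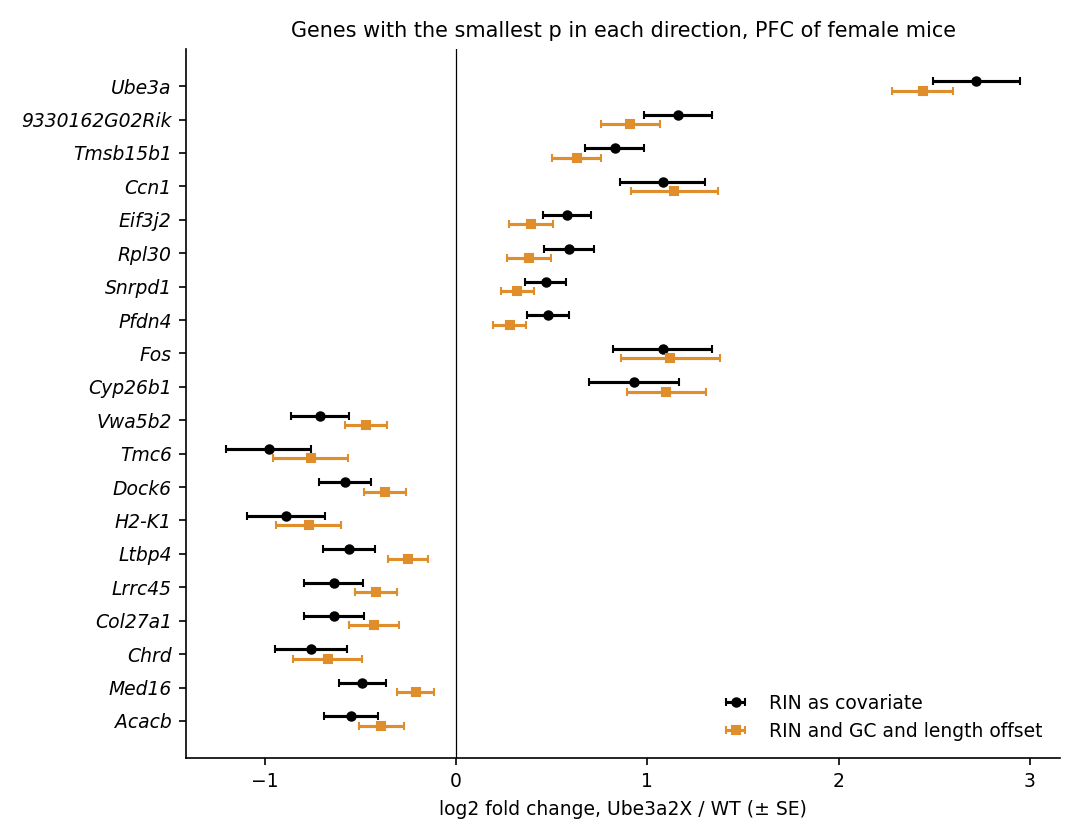
Log2 fold change (Ube3a2X over WT, horizontal axis) with SE bars for the 10 genes with the smallest p in each direction, with RIN as covariate (black circles) and with an added GC and length offset (orange squares). Ube3a lies apart at 2.72 and 2.44, and for most of the other genes the offset moves the value towards 0.

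H2-K1 encodes a class I major histocompatibility heavy chain, which presents peptides at the cell surface. It stood at 15.1, 23.7, 15.2, 17.9 and 18.9 CPM in WT and at 9.73, 10.6, 14.5, 12.6 and 6.12 CPM in Ube3a2X, a difference of -0.89 (SE 0.205, edgeR adjusted p = 0.415). The groups were apart by less than 1 CPM, and Ube3a2X 468 lay lowest. Other genes of the same pathway were looked at after this value was seen. H2-D1, a second class I heavy chain, differed by -0.75 (SE 0.219) and H2-Q4 by -1.42 (SE 0.369). Tap1 and Tap2, the subunits of the transporter that loads peptides, differed by -0.74 (SE 0.198) and -0.48 (SE 0.212), and Tap1 had no overlap between groups at 3.49 to 5.01 against 1.4 to 3.08 CPM. B2m, the light chain, and Tapbp, which holds the transporter to the heavy chain, differed by -0.24 (SE 0.147) and -0.17 (SE 0.124). With the offset, the values were -0.77 (H2-K1), -0.61 (H2-D1), -1.34 (H2-Q4), -0.60 (Tap1), -0.31 (Tap2), -0.44 (B2m) and 0.02 (Tapbp). Without WT 397 and Ube3a2X 468, H2-K1 differed by -0.66, H2-D1 by -0.45 and H2-Q4 by -0.85. Leaving out each library in turn gave -0.72 to -0.29 for Tap2, -0.34 to -0.12 for B2m and -0.27 to -0.06 for Tapbp. Heavy chain genes are near copies that also vary between strains, so reads may be shared among them. The 12 microglial markers, the cells that hold much of this pathway in brain, summed to 464 to 673 CPM in WT and to 455 to 624 CPM in Ube3a2X, and the part of these cells in the result was not tested.

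Immediate early genes had the highest median, with the 10 libraries and RIN as covariate, of the lists described here that had 10 or more genes tested. With all 20 PFC libraries in the fit, their median was 0.23. Medians above that were those of the Ube3a region (0.32), GABA-A subunits (0.30), named autism genes and chaperones (0.26 each), and ionotropic glutamate receptors and oligodendrocytes (0.25 each). Immediate early genes are induced within minutes by neuronal activity and encode transcription factors such as Fos, Egr1 and Npas4 and synaptic effectors such as Arc and Homer1. All 22 were tested, 19 had a positive difference, 7 were higher (31.8%, against 6.21% of all genes), 0 were lower and 0 were called by edgeR (DESeq2 called Fos and Egr2). Their median log2 fold change was 0.42, against 0.00 over all genes tested, and none had groups without overlap. Their GC content (median 53.5%) was above that of all genes, and with the offset 10 were higher and 0 lower, with a median of 0.36.

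The promoters of 4 of the 7 higher genes are printed to show the motif that CREB-family factors are known to bind in genes of this kind. Printed are 250 bases before to 50 after the start site from RefSeq on GRCm38.p6, 5′ to 3′ on the strand of the gene. Capitals mark TGACG in Fos and Npas4, on either strand, so that the first stretch in Npas4 reads as its reverse complement CGTCA, and the full palindrome TGACGTCA, which contains TGACG, in Btg2 and Dusp1. The spans are chr12:85473640-85473939 (plus strand) for Fos, chr19:4989922-4990221 (minus) for Npas4, chr1:134079106-134079405 (minus) for Btg2 and chr17:26508423-26508722 (minus) for Dusp1.
Fos: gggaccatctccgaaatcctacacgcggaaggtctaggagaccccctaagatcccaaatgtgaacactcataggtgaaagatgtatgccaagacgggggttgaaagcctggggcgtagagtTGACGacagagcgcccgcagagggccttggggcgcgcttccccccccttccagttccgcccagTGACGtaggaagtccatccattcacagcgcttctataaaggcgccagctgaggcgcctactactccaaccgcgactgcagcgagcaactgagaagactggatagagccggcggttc
Npas4: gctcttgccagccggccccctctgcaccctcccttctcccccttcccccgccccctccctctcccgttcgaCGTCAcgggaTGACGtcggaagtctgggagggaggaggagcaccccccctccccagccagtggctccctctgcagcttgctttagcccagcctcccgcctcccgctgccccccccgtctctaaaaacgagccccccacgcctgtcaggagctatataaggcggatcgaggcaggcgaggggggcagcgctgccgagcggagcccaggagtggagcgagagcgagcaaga
Btg2: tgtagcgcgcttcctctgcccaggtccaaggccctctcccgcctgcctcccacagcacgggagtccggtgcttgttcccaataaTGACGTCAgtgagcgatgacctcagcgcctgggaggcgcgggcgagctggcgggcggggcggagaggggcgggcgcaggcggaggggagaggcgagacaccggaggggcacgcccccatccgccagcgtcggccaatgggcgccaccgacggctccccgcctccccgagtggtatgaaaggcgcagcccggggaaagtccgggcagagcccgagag
Dusp1: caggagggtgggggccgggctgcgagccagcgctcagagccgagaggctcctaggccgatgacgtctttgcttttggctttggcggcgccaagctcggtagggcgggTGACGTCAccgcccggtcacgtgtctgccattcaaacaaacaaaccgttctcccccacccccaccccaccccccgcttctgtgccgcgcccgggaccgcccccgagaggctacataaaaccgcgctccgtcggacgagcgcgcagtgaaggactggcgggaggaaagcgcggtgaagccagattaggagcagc

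The first capital of each match lies at -129 and -66 from the start site in Fos, at -179 and -169 in Npas4, at -166 in Btg2 and at -143 in Dusp1. On either strand, TGACG occurred in 20.8% of 32851 mouse promoters of this length, in 16 of 29 promoters of the immediate early genes (55.2%, from 18 of the 22 genes that could be matched) and in 16 of 29 promoters of the chaperone genes described below. The palindrome occurred in 1.79% of all promoters and in 2 of 29 promoters of the immediate early genes (6.9%), the printed ones of Btg2 and Dusp1. A match is only a run of letters and no record of binding.

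Fos stood at 14.4, 10.2, 17.4, 24.5 and 19.9 CPM in WT and at 30.2, 37.3, 47.4, 19.1 and 25.2 CPM in Ube3a2X. Only Ube3a2X 462 lay inside the WT range. The difference was 1.08 (SE 0.259, edgeR unadjusted p = 0.00103, adjusted p = 0.415). Npas4 stood at 17.9, 4.69, 22.9, 26.5 and 19.1 CPM in WT and at 21, 36.1, 24.3, 26.1 and 39.6 CPM in Ube3a2X, a difference of 1.05 (SE 0.272). The value of WT 259 was far below the others, and only Ube3a2X 417 and 468 lay above the WT range. Egr2 stood at 1.92, 3.01, 4.12, 7.38 and 6.29 CPM in WT and at 7.85, 7.76, 12.4, 6.49 and 7.36 CPM in Ube3a2X, a difference of 1.18 (SE 0.327), with Ube3a2X 420 highest. With genotype alone, without RIN as covariate, the differences were 0.88 (Fos), 0.69 (Npas4) and 0.88 (Egr2). Fos and Npas4 each differed by 0.75 with all 20 PFC libraries in the fit.

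Egr1, the most abundant of the Egr transcription factors named here, stood at 187, 179.9, 279, 265 and 350 CPM in WT and at 362, 341, 371, 243 and 413 CPM in Ube3a2X, a difference of 0.61 (SE 0.178). Btg2, a regulator of mRNA decay and cell division, stood at 16.9, 9.06, 14.9, 28.3 and 16 CPM in WT and at 20.7, 31.9, 17.7, 28.8 and 21.6 CPM in Ube3a2X, a difference of 0.75 (SE 0.226). Both groups overlapped in both genes, with WT 259 lowest. Dusp1, a phosphatase that switches off MAP kinases, differed by 0.54 (SE 0.205) and Homer1, a postsynaptic scaffold with an activity-induced short form, by 0.46 (SE 0.141). Homer1 stood at 309, 296, 314, 322 and 373 CPM in WT and at 382, 344, 512, 454 and 513 CPM in Ube3a2X, where only Ube3a2X 417 lay within the WT range. Homer1 has 36.9% GC and differed by 0.20 with the offset, where it did not pass an unadjusted p of 0.05. Without WT 259 the difference of Dusp1 was 0.33, and with all 20 PFC libraries those of Dusp1 and Btg2 were 0.34 and 0.45. With genotype alone, Egr1, Btg2, Dusp1 and Homer1 differed by 0.46, 0.50, 0.42 and 0.45.

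Of the members outside that count, Arc stood at 129, 69.9, 117, 247 and 292 CPM in WT and at 322, 265, 308, 107 and 169 CPM in Ube3a2X, a difference of 0.73 (SE 0.407) that was 0.39 without WT 259 and 0.16 with all 20 PFC libraries in the fit. In WT 93, 259 and 262 and in Ube3a2X 462 and 468 the level was at most 169 CPM, and in the other 5 libraries at least 247 CPM. Fosb differed by 0.89 (SE 0.445), and by 0.33 without Ube3a2X 420, with Ube3a2X 420 at 66.9 CPM and the other 4 Ube3a2X libraries at 13.6 to 18.4 CPM. Nr4a1, a nuclear receptor, differed by 0.41 (SE 0.21), by 0.24 without WT 259 and by 0.11 with all 20 PFC libraries, whereas Jund, Egr4 and Jun differed by -0.17, -0.15 and -0.07. Over the whole list, the median deviation of log2-CPM from the mean of the WT libraries ran from -0.406 in WT 259 to 0.646 in Ube3a2X 420. The median difference of the list was 0.28 without Ube3a2X 420, 0.30 without WT 259, 0.53 without WT 397 and Ube3a2X 468 and 0.23 with all 20 PFC libraries in the fit.

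**Figure D4:**
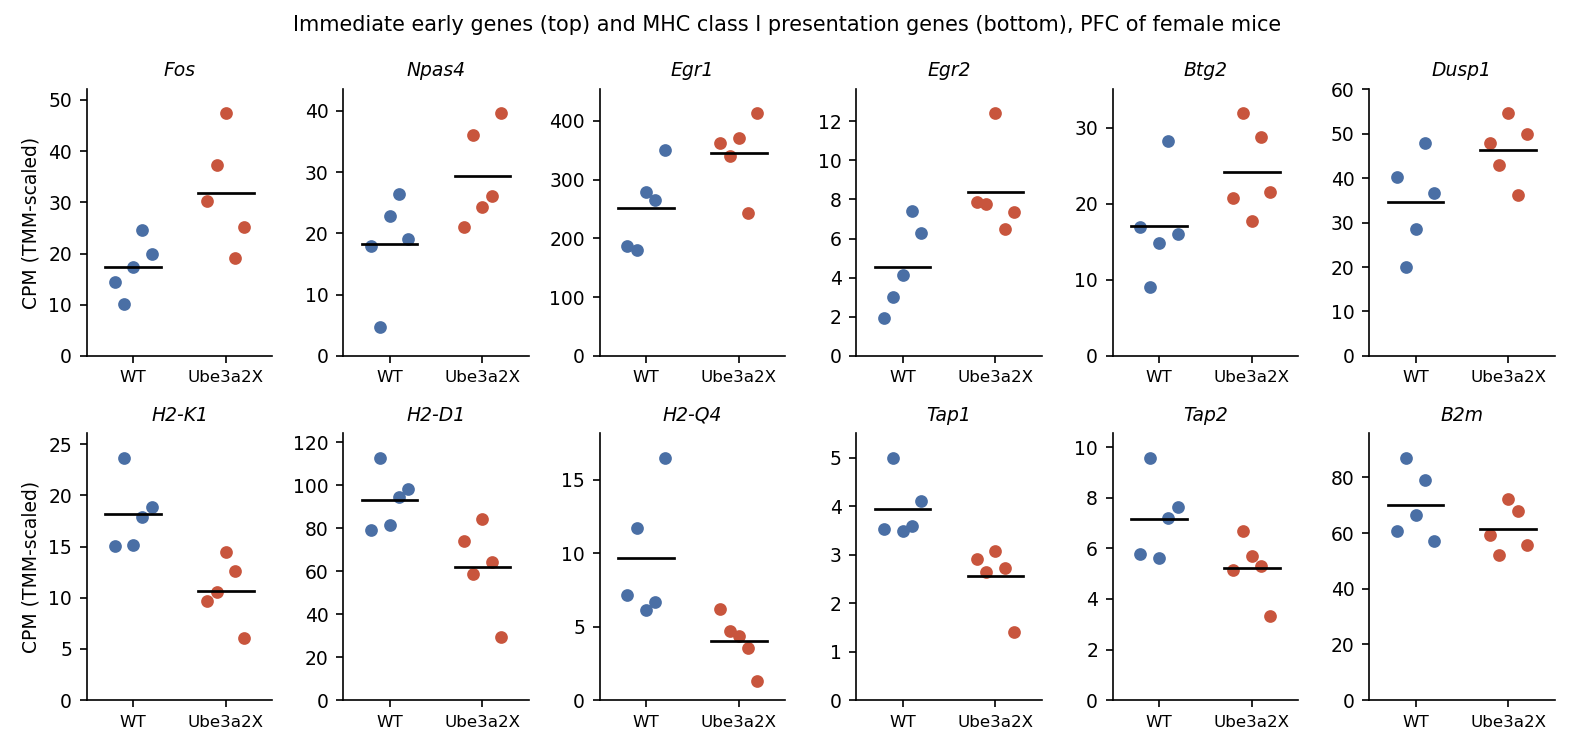
Levels of 6 immediate early genes (top) and 6 genes of class I antigen presentation (bottom), in CPM after TMM scaling (vertical axes from 0), for 5 WT (blue) and 5 Ube3a2X (red) libraries, with a black line at the mean. The means of the top genes are higher and those of the bottom genes lower in Ube3a2X, and H2-K1 and Tap1 alone have groups that do not overlap.

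Chaperones, the proteins that fold and refold others, lay on both sides. Of 23 genes tested, 11 were higher (47.8%, against 6.21% of all genes), 3 were lower (13.0%, against 5.41%) and 0 were called, with a median of 0.27. With the offset 5 were higher and 2 lower, with a median of 0.17, without Ube3a2X 468 the median was 0.17 as well, and with 2 surrogate variables it was 0.11. The higher ones included chaperones of the endoplasmic reticulum, the cytosol and mitochondria. Hspa5, the main HSP70 of the endoplasmic reticulum, stood at 296, 264, 301, 299 and 337 CPM in WT and at 329, 318, 380.4, 404 and 447 CPM in Ube3a2X. Ube3a2X 272 and 417 lay below the highest WT library, and the difference was 0.36 (SE 0.125). Canx, a lectin chaperone of the endoplasmic reticulum, differed by 0.40 (SE 0.149) and Hspd1, the mitochondrial HSP60, by 0.36 (SE 0.137). The cytosolic chaperones Dnaja1, Hspa8 and Hsp90aa1 differed by 0.37 (SE 0.131), 0.32 (SE 0.122) and 0.43 (SE 0.192). Without Ube3a2X 468, which held the highest level of Canx (1123 CPM, against 554 to 749.7 CPM in the other 9 libraries), Canx differed by 0.19, Hsp90aa1 by 0.24 and Hspd1 by 0.23. With 2 surrogate variables Hsp90aa1 differed by 0.10. The lower ones were the HSP70 genes Hspa1a (-0.69, SE 0.254) and Hspa1b (-0.65, SE 0.229), near copies whose reads are uncertain, and Hsf1, the transcription factor of the heat shock response (-0.33). Hspa1b stood at 8.97, 11, 9.47, 8.45 and 7.24 CPM in WT and at 5.27, 6.82, 8.54, 7.8 and 3.08 CPM in Ube3a2X, with groups that overlapped. Without Ube3a2X 468, Hspa1a and Hspa1b differed by -0.45 and -0.42. The GC content of Hspa5 and the other 5 genes named as higher was 41.2 to 46.8%, and that of Hspa1a and Hspa1b was 58.9 and 58.1%.

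The promoter of Hspa5 is printed because it carries the stress element of the endoplasmic reticulum, a motif that occurs in 0.119% of all promoters of this length and in 5 of 29 promoters of the listed chaperones (Calr, Canx, Hsp90b1, Hspa5 and Pdia6, 21 genes matched). The span is chr2:34771840-34772139 on the plus strand of GRCm38.p6, from RefSeq, 5′ to 3′, and capitals mark the element, CCAAT and CCACG separated by 9 bases of any kind, which begins at -65 from the start site. Both strands were searched.
Hspa5: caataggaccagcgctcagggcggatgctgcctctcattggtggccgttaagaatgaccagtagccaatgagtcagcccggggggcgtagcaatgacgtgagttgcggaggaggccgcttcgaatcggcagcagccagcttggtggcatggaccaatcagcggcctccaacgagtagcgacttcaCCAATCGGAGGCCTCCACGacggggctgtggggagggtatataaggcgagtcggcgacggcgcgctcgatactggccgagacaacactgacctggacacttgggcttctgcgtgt

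Of these 5 genes, Canx, Hspa5 and Hsp90b1 were among the 11 higher ones, with a difference of 0.33 for Hsp90b1, and Calr and Pdia6 differed by 0.14 and 0.19 without passing an unadjusted p of 0.05.

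Genes of cholesterol synthesis and uptake numbered 21 tested, of which 6 were higher (28.6%, against 6.21% of all genes), 0 lower (against 5.41%) and 0 called, with a median of 0.12. With the offset 4 were higher and 0 lower, with a median of 0.15, and leaving out 1 library gave medians from 0.07 (without WT 397) to 0.19 (without Ube3a2X 468). Hmgcs1, an early enzyme of the pathway, stood at 513, 347, 416, 479 and 545 CPM in WT and at 707, 577, 685, 486 and 671 CPM in Ube3a2X. Only Ube3a2X 462 lay inside the WT range, and the difference was 0.47 (SE 0.154). The others were Sc5d (0.45, SE 0.154), Idi1 (0.45, SE 0.177), Cyp51 (0.30, SE 0.131), Msmo1 (0.30, SE 0.131) and Nsdhl (0.29, SE 0.116), all enzymes of the pathway. Nsdhl had groups without overlap. Without Ube3a2X 468, Sc5d differed by 0.24 and Nsdhl by 0.19. Sqle, another enzyme, differed by 0.22 without passing an unadjusted p of 0.05.

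Genes of the ubiquitin and proteasome system had medians between 0.02 and 0.21, with 0 called apart from Ube3a. Of 32 proteasome subunits tested, 4 were higher (12.5%) and 0 lower, with a median of 0.09 (0.03 with the offset and -0.03 without WT 397). For this list and those below, the shares over all genes tested were 6.21% higher and 5.41% lower. Psmc6, an ATPase of the regulatory particle, stood at 126, 94.8, 122, 109.8 and 115 CPM in WT and at 145, 138, 132, 125 and 178 CPM in Ube3a2X, a difference of 0.39 (SE 0.125). Ube3a2X 462 lay just inside the WT range. Psmc1, another of these ATPases, differed by 0.35 (SE 0.145), with Ube3a2X 468 at 343 CPM and the next Ube3a2X library at 229 CPM (0.15 without Ube3a2X 468), and the other 2 higher subunits were Psmd1 (0.30) and Psma4 (0.26). Of the 18 other HECT ligases tested, 0 were higher and 0 lower, with a median of 0.21 that was 0.05 with the offset and 0.09 without Ube3a2X 468. Among reported UBE3A substrates and partners, 2 of 15 were higher and 0 lower, with a median of 0.02 (0.05 with the offset). Uchl5, a deubiquitinase bound to the proteasome, had groups without overlap, at 78.8, 76.3, 81.8, 78.4 and 77.7 CPM in WT and at 95.7, 87.3, 92.3, 86 and 143 CPM in Ube3a2X. Its difference was 0.41 (SE 0.138), and 0.20 either with the offset or without WT 397 and Ube3a2X 468. The steroid receptors and enzymes as a list had 1 of 16 higher (6.25%, near the share over all genes) and 0 lower. Their median was 0.08 (0.03 with the offset), and Esr1 and Pgr differed by 0.10 and 0.27.

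Receptor and channel genes had 0 called, and most of their differences were smaller with the offset for GC and length. GABA-A receptor subunits had 3 of 11 higher, among them Gabrg3 (27.3%, against 6.21% of all genes), and 0 lower (against 5.41%). Their median of 0.31 was 0.08 with the offset, 0.12 without Ube3a2X 468 and 0.14 without WT 397 and Ube3a2X 468. Of the subunits that did not pass an unadjusted p of 0.05, Gabrb2 differed by 0.43 (SE 0.222, 0.16 without Ube3a2X 468) and Gabra4 by 0.23 (SE 0.117, 0.12 without Ube3a2X 468 and 0.04 with the offset). Ionotropic glutamate receptors had 1 of 16 higher and 1 lower (6.25% each, near the shares over all genes). Their median was 0.21 (0.10 with the offset, 0.08 without Ube3a2X 468 and 0.03 with 2 surrogate variables). The higher one was Grin2a at 0.31 (SE 0.134) and 44.8% GC and the lower one Grin2c at -0.35 (SE 0.152) and 62.1% GC, both subunits of NMDA receptors, and with the offset they differed by 0.11 and -0.02. Metabotropic glutamate receptors had 1 of 7 higher, Grm3 at 0.38 (SE 0.174), and 0 lower, with a median of 0.16 (0.10 with the offset, 0.01 without Ube3a2X 468 and -0.02 with 2 surrogate variables). For Grm3, the difference was 0.12 without WT 397 and Ube3a2X 468, and Ube3a2X 468 stood at 175 CPM and the other 9 libraries at 80.2 to 98.5 CPM.

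Scaffold and adhesion genes of the postsynapse had 3 of 24 higher (12.5%, against 6.21% of all genes) and 2 lower (8.33%, against 5.41%), with a median of 0.02. With the offset 2 were higher and 0 lower, with a median of 0.07. Shank3, a scaffold of excitatory synapses, stood at 214, 377, 218, 277 and 306 CPM in WT and at 169, 205, 194, 249.8 and 182 CPM in Ube3a2X, a difference of -0.51 (SE 0.173). The WT libraries ranged widely, and Ube3a2X 462 lay above the 2 lowest of them. Dlgap3, which binds SHANK proteins, differed by -0.54 (SE 0.189) and Lrrtm2, an adhesion protein, by 0.51 (SE 0.197). The other 2 higher genes were Homer1, described above, and Cntnap2, an adhesion gene of the axon (0.36). With the offset the differences were -0.19 (Shank3), -0.18 (Dlgap3) and 0.29 (Lrrtm2), and without WT 397 and Ube3a2X 468 Dlgap3 differed by -0.30. Presynaptic release genes had 0 of 19 higher and 0 lower, with a median of -0.04 (0.02 with the offset). Sodium and calcium channels had 0 of 16 higher and 2 lower, with a median of 0.09 (0.08 with the offset, when 1 was higher and 0 lower), among them Cacna1g (-0.29, SE 0.118), at -0.10 with the offset. Potassium channels had 1 of 30 higher and 2 lower, with a median of 0.14 (0.10 with the offset, when 1 was higher and 0 lower, 0.02 without Ube3a2X 468 and 0.26 without WT 93). Kcnk2, a leak channel of the resting membrane, differed by 0.34 (SE 0.113) and by 0.38 with the offset, whereas Kcnh3 and Kcnt1 differed by -0.42 and -0.34, and by -0.13 and -0.22 with it. Without WT 259, Kcnh3 differed by -0.26 and Shank3 by -0.30, and without Ube3a2X 468 Kcnt1 differed by -0.21. Kcnt1 had groups without overlap, at 109.8 to 118 CPM in WT and 70.6 to 108 CPM in Ube3a2X.

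Of the autism-associated genes named in the study, 17 were tested and 0 called, with a median of 0.27. Of these 17, 4 were higher (23.5%, against 6.21% of all genes) and 2 lower (11.8%, against 5.41%). The study picked these genes from the same samples, so their direction here is no independent evidence. With the offset 0 were higher and 0 lower, with a median of 0.12, and the median was 0.12 without Ube3a2X 468 and 0.15 without WT 397 and Ube3a2X 468. Fmr1, whose silencing causes fragile X syndrome, stood at 142, 119, 138, 123 and 154 CPM in WT and at 166, 158, 156, 147 and 219.7 CPM in Ube3a2X. Only Ube3a2X 462 lay inside the WT range, and the difference of 0.37 (SE 0.131) was 0.13 with the offset. Cul3, a ubiquitin ligase scaffold and also among the higher genes, differed by 0.35 (SE 0.147). Deaf1, a transcription factor, differed by -0.35 (SE 0.125), and Shank3 was the other lower gene. Of the list's genes with an unadjusted p above 0.05, values were Scn2a (0.34), Sox5 (0.29), Gria2 (0.28), Mef2c (0.27), Tcf4 (0.26), Scn1a (0.25), Gabrb2 (0.43), Gabra4 (0.23), Chd3 (0.03), Smarcc2 (0.03) and Dlg4 (-0.19). Ube3a2X 468 held the highest level of Scn2a, at 1093 CPM against 516 to 766 CPM in the other 9 libraries, and of Mef2c, at 2093 CPM against 1035 to 1476 CPM. Without WT 397 and Ube3a2X 468, Scn2a differed by 0.14, Mef2c by 0.05 and Cul3 by 0.24. Without Ube3a2X 468 alone, Cul3 differed by 0.17, Fmr1 by 0.22, Scn2a by 0.11 and Gria2 by 0.17. A wider list of autism-linked chromatin and transcription regulators had 1 of 36 higher (Foxp1, a transcription factor, at 0.35, SE 0.159, and 0.15 without Ube3a2X 468) and 2 lower (Deaf1 again and Kmt2d, a histone methyltransferase, at -0.27, SE 0.12), with a median of 0.12 (0.06 with the offset, when 1 was higher and 0 lower).

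Genes of translation and respiration had 0 called by edgeR (DESeq2 called Rpl30) and medians between -0.07 and 0.10. Cytosolic ribosomal proteins had 4 of 80 higher (5%, against 6.21% of all genes) and 1 lower (1.25%, against 5.41%). Their median of -0.07 ran from -0.19 (without WT 397) to 0.03 (without WT 259), and was -0.03 with the offset, when 6 were higher and 2 lower. Rpl35a had groups without overlap, at 29.8 to 49.4 CPM in WT and 50.7 to 58 CPM in Ube3a2X (0.44, SE 0.139), and Fau, a ribosomal fusion protein, differed by -0.67 (SE 0.252, -0.42 without Ube3a2X 468). Rpl30, Rpl23 (0.38) and Rps24 (0.31) were the other higher genes. Nuclear genes of oxidative phosphorylation had 3 of 69 higher (4.35%) and 1 lower (1.45%), with a median of -0.07 (-0.02 with the offset, when 4 were higher and 0 lower). Uqcrb, of complex III, differed by 0.36 (SE 0.106) without overlap, Ndufs5, of complex I, by 0.60 without overlap, Cycs by 0.30 (SE 0.121) and Cox6a1, of complex IV, by -0.47 (SE 0.178, -0.28 without WT 259 and -0.12 with the offset). The mRNAs encoded by mitochondria were not analysed here. Translation control and mTOR signalling had 5 of 33 higher and 2 lower, with a median of 0.10 (0.05 with the offset, when 0 were higher and 1 lower), with Fmr1, Rps6kb1 and Eif4a2 among its higher genes, and its lower genes were Rps6kb2 (-0.54, SE 0.201) and Map2k2 (-0.52, SE 0.238). Ube3a2X 468 held the lowest level of both, and without it they differed by -0.30 and -0.25. Neuropeptides of cortex had 0 of 15 higher and 0 lower, with a median of -0.04 (0.06 with the offset), and 7 protocadherin genes had 0 higher and 0 lower, with a median of -0.07 (0.03 with the offset, when 1 was higher).

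**Figure D5:**
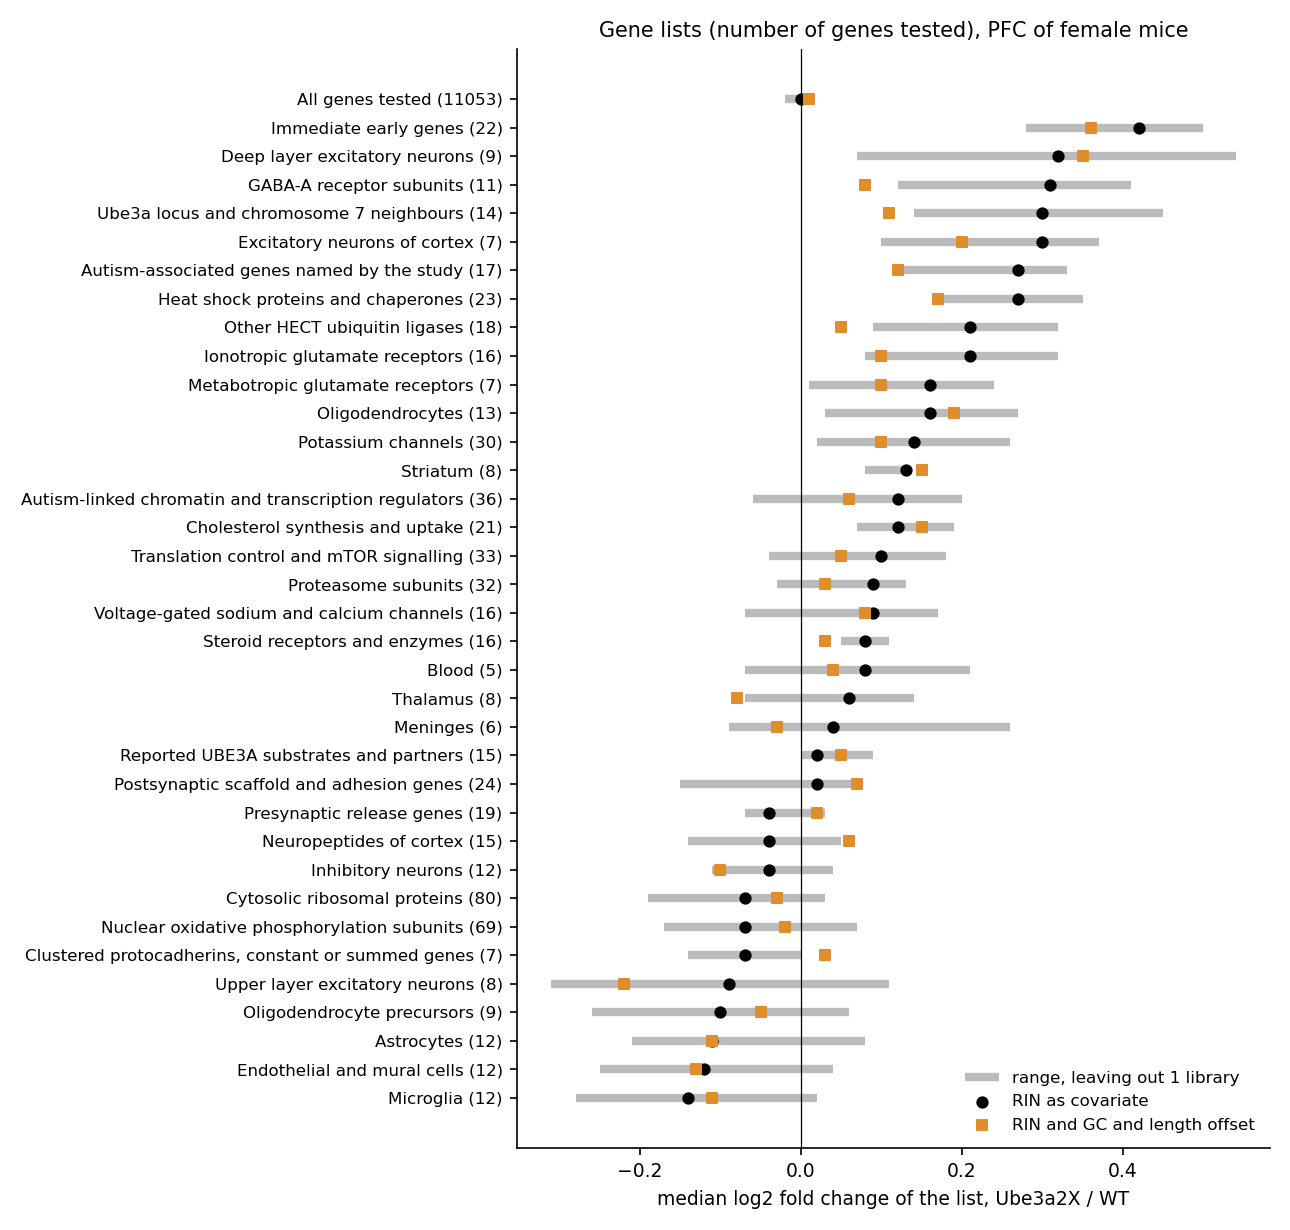
Median log2 fold change (Ube3a2X over WT, horizontal axis) of each gene list with 5 or more genes tested, with RIN as covariate (black circles) and with an added GC and length offset (orange squares). Grey bars span the medians when each library was left out in turn; the immediate early genes lie at 0.42 and 0.36, and all genes tested at 0.

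Several list medians near 0 had no settled sign. Without Ube3a2X 468 the medians were -0.15 for postsynaptic scaffolds, -0.07 for sodium and calcium channels, -0.06 for chromatin regulators, -0.04 for translation control, 0.07 for oxidative phosphorylation and 0.05 for neuropeptides. Without WT 397 presynaptic release genes were at 0.03. With 2 surrogate variables, ribosomal proteins were at 0.20, oxidative phosphorylation at 0.14, sodium and calcium channels at -0.10, chromatin regulators at -0.07 and postsynaptic scaffolds at -0.06.

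Cell type markers held 0 genes called by edgeR or DESeq2 in all lists. Of all genes tested, 6.21% were higher and 5.41% lower. Deep layer excitatory neurons had a median of 0.32, with 9 of 9 genes positive and 0 higher or lower, and their median was 0.07 without WT 259, 0.14 without Ube3a2X 272, 0.54 without WT 93, 0.35 with the offset and -0.08 with 2 surrogate variables. Library by library, the deviation of these 9 genes ran from -0.742 in WT 259 and -0.45 in WT 262 to 0.847 in Ube3a2X 272, with Ube3a2X 462 at -0.316, so that the groups overlapped. Summed, the deep layer markers stood at 387 to 817 CPM in WT and 534 to 906 CPM in Ube3a2X. The upper layer list had 1 of 8 lower (Otof at -0.42) and a median of -0.09, which was 0.11 without WT 259, -0.31 without Ube3a2X 468, -0.33 without WT 397 and Ube3a2X 468, and -0.22 with the offset. Excitatory neurons in general had 1 of 7 higher (Nrn1 at 0.31) and 1 lower (Emx1 at -0.52), with a median of 0.30 (0.20 with the offset, 0.10 without Ube3a2X 468, 0.14 without WT 259 and 0.01 with 2 surrogate variables). Inhibitory neurons had 1 of 12 higher (Gad2 at 0.30) and a median of -0.04 (-0.10 with the offset, 0.04 without WT 259) and summed to 1971 to 2307 CPM in WT and 1963 to 2196 CPM in Ube3a2X. Glial and vascular lists had these medians: astrocytes at -0.11 (1 of 12 lower, Fgfr3 at -0.46), oligodendrocytes at 0.16, their precursors at -0.10 (1 of 9 lower, Olig1 at -0.47), microglia at -0.14 and endothelial and mural cells at -0.12, with 0 others higher or lower. With the offset these were -0.11, 0.19, -0.05, -0.11 and -0.13. Without WT 259, astrocytes were at 0.08, precursors at 0.06, microglia at 0.02 and endothelial and mural cells at 0.04, and without WT 93 they were at -0.21, -0.26, -0.28 and -0.25. With 2 surrogate variables these 4 were at 0.04, 0.06, 0.06 and 0.03. The oligodendrocyte median was 0.03 without Ube3a2X 272 or 417, 0.06 without WT 262, 0.25 without WT 397 or Ube3a2X 462, 0.27 without Ube3a2X 468 and 0.42 without WT 397 and Ube3a2X 468. Striatal, thalamic, meningeal and blood markers had medians of 0.13, 0.06, 0.04 and 0.08, with 0 higher and 0 lower in each, and of 0.15, -0.08, -0.03 and 0.04 with the offset. Without 1 library the signs of 3 of them turned: -0.07 for thalamus without Ube3a2X 468, -0.09 for meninges without WT 397 and -0.07 for blood without Ube3a2X 462. Choroid plexus markers summed to 3.8 to 6.03 CPM and ependymal markers to 5.54 to 10.3 CPM, and of both lists together with the hypothalamic and olfactory ones no more than 1 gene each was tested. Whether the share of cortical layers in the punches bears on any gene above was not tested.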

How the data were processed

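RNA was sequenced from paired-end stranded mRNA libraries (TruSeq) prepared in 1 batch. The authors aligned the reads to GRCm38 with STAR and deposited raw counts of reads per gene (featureCounts, Gencode v24, no versions given), without normalization. The authors also deposited Picard quality measures: the bases per kind of region and the reads on the expected strand as a fraction (given here in percent), the evenness of coverage and the end bias as a ratio, and AT dropout and RIN as a score. The strand setting of the counting is not given in the sources used here.

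From the counts of the 10 libraries, 54165 genes were reduced to 13004 by requiring 100 reads in all libraries but 1 at most, and to 11053 by dropping the 15% whose log2-CPM (prior count 2) varied least. edgeR 4.0.16 in R 4.3.3 was used (TMM, estimateDisp, robust glmQLFit, glmQLFTest, two-sided) with RIN and genotype, and p was adjusted after Benjamini and Hochberg over all genes tested. A fit with 2 surrogate variables (the number in the study's PFC model, estimated here from the 10 libraries) was an alternative, as were DESeq2 1.42.0, limma-voom 3.58.1, sva 3.50.0 with 1 variable, other scalings and filters, genotype alone, an offset for GC and length, all 20 PFC libraries, and leaving out each library. GC content and length came from GENCODE vM21 (53905 of 54165 genes found). The 14 library measures were compared by exact two-sided permutation, which cannot give a p below 0.00794. The p-values set a group difference against the spread between libraries of 1 mouse each, in which mouse, dissection and library preparation cannot be separated. The script was tested on simulated counts that held no trend of a library on GC content. There the main fit called 29.63% of genes changed 1.5-fold, 97.06% of those changed 2-fold and 98.46% of those changed 4-fold. Plots were drawn with matplotlib 3.10.9 (Python 3.11.15).

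The named genes were the tested genes of the Ube3a region, in each direction the 10 genes of smallest p (mean of at least 1 CPM), up to 2 genes per direction and list with an unadjusted p under 0.05, the autism-associated genes the study names, and markers. Other genes named were chosen after their values were seen: the class I genes, the near copies of Tmsb15b1, and further members of lists, such as those that complete a count of 5 or fewer. A few genes that the rule names are left out here but enter the counts and medians of their lists. The comparison and the lists were chosen with earlier results of these data known.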

Additional observations from a re-analysis of the deposited data

Results flagged for a closer look

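In 258 sets of 5 libraries (98 genes, 14 library measures and 17 marker lists, in each group), 32 held a library farther from the others than Dixon's criterion allows (a gap over 0.71 of the range), where chance would give about 12.9. Ube3a2X 468 was that library in 20 of them. Among genes it stood highest for Gabrg3 (154, next 91.3), Herc2 (547, next 404), Snrpd1 (49.8, next 41.2), Uchl5 (143, next 95.7), Psmc1 (343, next 229), Grin2a (527, next 368), Grm3 (175, next 97.4), Fmr1 (219.7, next 166), Foxp1 (254, next 174), Sc5d (165, next 113), Scn2a (1093, next 751), Cul3 (419.9, next 299), Mef2c (2093, next 1476), Tcf4 (858, next 609) and Canx (1123, next 728), all in CPM. It stood lowest for Tap1 (1.4 CPM, next 2.65). Its library measures stood apart too, with a GC slope of -0.449 per 10 points (next -0.0793), a length slope of 0.17 per doubling (next -0.0168), a coefficient of variation of coverage of 0.717 (next 0.503) and an AT dropout of 10.6 (next 17.3). The part of these measures in the gene values was not tested.

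WT 397 was lowest for Snrpn (832 CPM, next 1091) and Uqcrb (55.5 CPM, next 62.2) and highest for Smarcc2 (547 CPM, next 377). Its reads held 51.9% coding bases (next 44.9%) and 40.3% UTR bases (next 46.9%). WT 259 was lowest for Snurf (358 CPM, next 427) and highest for Med16 (58.2 CPM, next 45.4) and Kcnh3 (244 CPM, next 179). WT 395 had 95.6% of reads on the expected strand (next 93.2%). Ube3a2X 420 was highest for Fosb (66.9 CPM, next 18.4) and Egr2 (12.4 CPM, next 7.85). Ube3a2X 462 was highest for the olfactory bulb markers (66.2 CPM summed, next 13.3): Cdhr1 stood at 39.2 CPM against 4.04 to 8.63 CPM in the other 9 libraries, Doc2g at 14.2 against 1.04 to 2.63 CPM and Tbx21 at 2.57 against at most 0.32 CPM. Th, at 2.7 CPM, lay within the range of the others (0.4 to 2.99 CPM).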

How the results depend on the processing

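Ube3a stayed called with the same direction under all 24 alternatives. The number of called genes was 16 with DESeq2, 3 without the filter on low counts, 2 with all 20 PFC libraries, and 1 to 2 when each library was left out (2 without WT 93, where 9330162G02Rik was added), and 1 in the others. The genes at an unadjusted p under 0.05 numbered 2844 without the filter on low counts (of 33998 tested), 2019 with all 20 PFC libraries, 507 with the GC and length offset, 678 with that offset and without WT 397 and Ube3a2X 468 (chosen after seeing the data), and 362 to 2071 when each library was left out. Upper quartile factors put the median of all genes at -0.0441 and turned the split of these genes to 413 higher and 750 lower, and 957 were higher and 538 lower with filterByExpr. Lower genes were also the more numerous in some other fits, such as those with 1 surrogate variable (403 higher, 594 lower), with 2 (421 and 531) and without Ube3a2X 468 (193 and 253). The group difference in length slope, 0.0247, was -0.0146 to 0.0517 when each library was left out, with -0.0146 without Ube3a2X 468. Of the values of named genes, 2251 kept direction and side of the threshold, 18 passed the threshold only under the alternative, and 26 changed sign, all of them uncalled. When each library was left out, Ndn ran from -0.39 to 0.06, Herc2 from -0.06 to 0.18, Chd3 from -0.04 to 0.14 and Smarcc2 from -0.06 to 0.07. The changes were Ndn (0.06 without Ube3a2X 468), Herc2 (-0.05 and -0.01 with 2 and 1 surrogate variables, -0.06 without Ube3a2X 468, -0.04 without WT 397 and Ube3a2X 468, -0.01 with the offset added), Nipa2 (-0.05) and Tcf4 (-0.02) with the offset, and Tapbp (0.02 with the offset, 0.06 also without both libraries). Without both libraries and with the offset, Mef2c was -0.07 and Gabra4 0.00. Chd3 was -0.01 with upper quartile factors, 0.00 without the variance filter, -0.02 with genotype alone, -0.06 and -0.02 with 2 and 1 surrogate variables and -0.04 without WT 262. Smarcc2 was -0.02, -0.01, -0.02, -0.14 and -0.06 in the same 5 fits, -0.01 without WT 262 or WT 395 and -0.06 without Ube3a2X 468. The cause of these changes was not tested. Of the list medians, 823 moved by less than the spread between libraries and 17 by more. No paired analysis was possible because the groups share no mouse numbers.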

Other observations

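Bc1, a short noncoding RNA of neurons that acts in dendrites (chr7:144914470-144914637, plus strand, GRCm38), was not called (edgeR adjusted p = 0.457). In the fit of the 10 libraries with RIN as covariate, and only there as far as given here, its log2 difference was larger than that of Ube3a (2.84, SE 1.77). It was picked after its values were seen. Its levels were 126, 249.9, 121, 136 and 7694 CPM in WT 93, 259, 262, 395 and 397 and 2148, 2714, 5137, 113 and 26217 CPM in Ube3a2X 272, 417, 420, 462 and 468. The 10 libraries thus fell into 5 at 113 to 249.9 CPM, with Ube3a2X 462 among them, and 5 at 2148 CPM or more, with WT 397 among them. The highest values were those of Ube3a2X 468 and WT 397, the libraries that stood apart in composition and coverage, and the part of library preparation in these levels was not tested.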
